A study of Homo sapiens with 20 samples.

Results

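Cells of the colorectal carcinoma line HCT116 (wild type, per the labels) received a stapled peptide or water and no Nutlin-3a, and their nuclear RNA was compared across all genes. The comparison holds 10 of the 20 libraries of the study, chosen by their labels: 5 of the peptide group (labelled Peg6) and 5 of the water group, 2 of each from experiment 1 and 3 of each from experiment 2. Peptide cells were electroporated with 10 µM peptide and kept for 3 hours in medium with 0.1% DMSO and a further 200 nM peptide. Water cells were electroporated with water and kept for the same 3 hours in 0.1% DMSO. Both groups thus share the electroporation, the DMSO and the absence of Nutlin-3a, and the other 10 libraries, with 10 µM Nutlin-3a added to either group, are used at the end. Library n of the peptide group was paired with library n of the water group in the same experiment. The labels do not say whether libraries of a group came from separate cultures, so p-values measure the spread between these samples.

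The transcription factor p53 drives genes for cell cycle arrest, apoptosis and DNA repair, and Mediator is the coactivator complex that links such factors to RNA polymerase II. The peptide was designed to occupy the p53 binding surface of Mediator. In unstressed cells the ubiquitin ligase MDM2 keeps p53 low, which leaves only basal activity at its target genes, and Nutlin-3a releases p53 from MDM2. The comparison without Nutlin-3a asks what the peptide does to nuclear RNA when p53 is at that basal level. Nuclear RNA is rich in unspliced transcripts and in small nuclear and nucleolar RNAs, so a level here is not the level of mature cytoplasmic mRNA.

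The gene rows held 46149313 to 47506984 reads in the peptide libraries of experiment 1 and 23721044 to 47407746 in those of experiment 2, against 36717795 to 45085187 and 19052980 to 39324843 in the water libraries. Levels are RPM, reads scaled to the total of all gene rows of a library, further scaled between libraries by a trimmed mean of M values, and are not corrected for gene length. Of 25 listed epithelial identity genes, 14 reached a mean of 0.5 RPM. The keratin KRT8 had a mean of 1456 RPM and the adhesion molecule EPCAM one of 244 RPM. Of 12 blood and 12 fibroblast or endothelial markers, 5 and 4 reached a mean of 0.5 RPM. The leukocyte gene PTPRC had at most 0.0844 RPM and the collagen gene COL1A2 at most 0.0211 RPM, while CD14 had 0.0817 to 6.45 RPM, CD68 a mean of 12.96 RPM, PDGFRB 0 to 3.43 RPM and COL1A1 11.5 to 80.1 RPM. The villin gene VIL1 had at most 0.316 RPM. Rows of structural RNA held 2.01 to 5.29% of the reads of experiment 2 libraries and 17.0 to 19.1% of those of experiment 1, so the experiments are also given apart.

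Among 15917 genes whose mean reached 0.5 RPM, none passed the test over both experiments. The paired limma fit called 0 genes at an adjusted p under 0.05 (0% of those tested), and the smallest adjusted p was 0.6875. At an unadjusted p under 0.05 there were 1110 genes (6.97%), 731 higher (4.59%) and 379 lower (2.38%) with peptide. Limma-voom on the recovered whole reads called 1 row (0.00628%), MT1F, described below, and had 1284 genes at an unadjusted p under 0.05. A p that misses the threshold does not show that levels were equal, so the size that the 5 pairs still allow is given next.

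Most differences were small. The 95% interval of the change lay within a 1.5-fold difference in both directions for 15747 genes (98.9%), and the interval of the median gene reached 0.15 to either side on the log2 scale. In 1084 genes (6.81%) it left out 0 at a change under 1.5-fold. The middle of the distribution ran from -0.15 at the 5th percentile to 0.16 at the 95th, around a median of 0.03. These intervals are for single genes, and changes are on the log2(RPM + 0.5) scale, which understates the change of low genes. With 0.1 in place of 0.5 in that scale the count within 1.5-fold was 14635, and in limma-voom it was 14645. Without the pairing, with a term for experiment in its place, the count within 1.5-fold was 9520. Just 24 genes were at least 1.5-fold higher (0.151%) and 18 at least 1.5-fold lower (0.113%), and none of these 42 is on a p53 list.

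**Figure D1:**
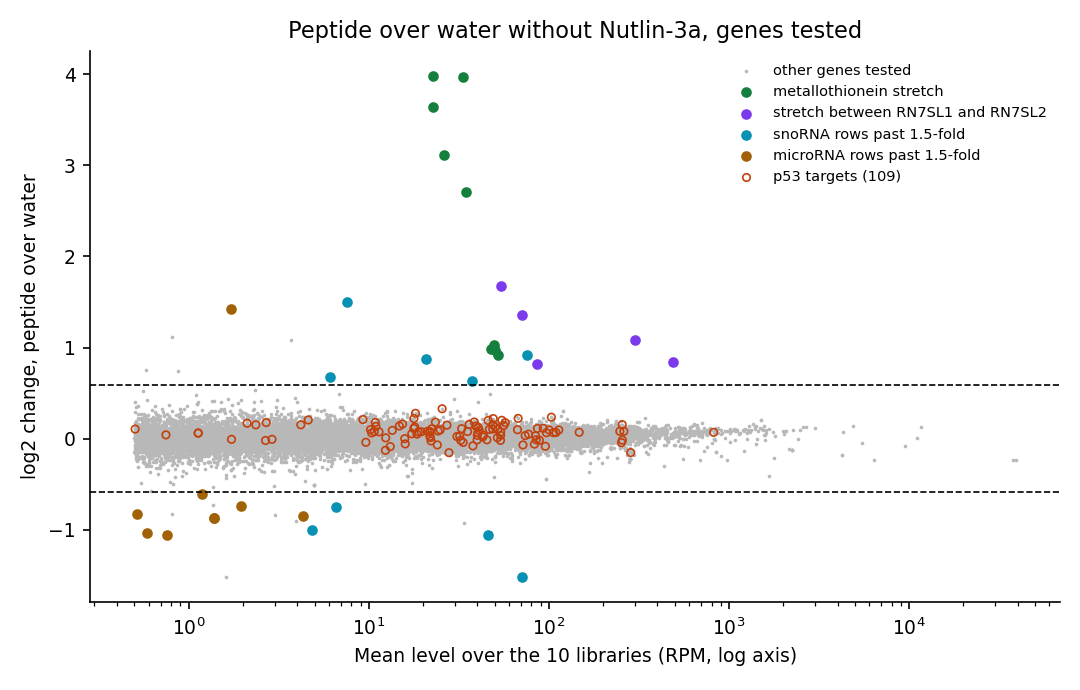
Each point is 1 gene tested, with its mean RPM over the 10 libraries on a log axis and its log2 change, peptide over water, from the paired fit. Dashed lines mark a 1.5-fold difference; the 109 p53 targets (open circles) lie between them, and the rows beyond are mostly metallothionein, snoRNA and microRNA rows and 5 rows between RN7SL1 and RN7SL2.

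Pairs differed less than replicates of 1 condition in experiment 2. The median absolute log2 difference between a peptide library and its water partner was 0.122, 0.0928 and 0.172 there, while replicates of the same condition differed by 0.450 to 0.488. In experiment 1 the pairs differed by 0.0853 and 0.0841 and replicates by 0.0940 to 0.100. Between 0.572% and 2.49% of genes differed by 1.5-fold or more within a pair. The pairs of the water group with and without Nutlin-3a, which share these water libraries, had 0.808% to 39.0% of genes past that fold.

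The p53 targets are the genes that the peptide was designed to act on. Of 109 targets tested, 84 lay above 0 with peptide and 25 below, where 61.9% of all genes lay above 0 and 38.1% below. Their median log2 change was 0.07, against 0.03 for all genes. None passed the test, and at an unadjusted p under 0.05 there were 23 higher and 2 lower, where 4.59% and 2.38% of all genes were. All 109 intervals lay within 1.5-fold. In 21 targets the peptide library was the higher one in all 5 pairs, which 6.48% of all genes showed, and in 1 it was the lower one in all 5, which 2.98% showed. The split of all genes depended on the scaling, with 55% above 0 for median-of-ratios, 51.8% for upper quartile and 52.3% for no scaling, and 81, 80 and 80 of the targets. The 25 targets at an unadjusted p under 0.05, where all genes had 1110, became 16 with upper quartile scaling and 15 with no scaling. All genes had 982 and 800 there. Without the pair of experiment 1 replicate 2 there were 16 targets, and the count of all genes is not given for that setting. Without the pairing there were 0 targets, where all genes had 22. In the fit of all 20 libraries there was 1, where all genes had 169. Pair by pair, the median target lay at 0.10, 0.06 and 0.05 in experiment 2 and at 0.11 and 0.04 in experiment 1.

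PHLDA3, at chr1:201465479-201469171 on the minus strand (hg38), encodes a pleckstrin homology protein that restrains AKT and had the smallest p of all genes. Its scaled level was 17.2 and 17.9 RPM in the peptide libraries of experiment 1 and 40.2, 26.8 and 35.9 RPM in those of experiment 2, against 12.5 and 14.6 RPM and 33.2, 20.3 and 30.2 RPM in the water libraries. The peptide library was the higher one in each of the 5 pairs. The naming rule took PHLDA3, and CDKN1A, TP53INP1 and PTP4A1 below, from genes higher in all 5 pairs, so that agreement adds no support. The groups of PHLDA3 did not overlap in experiment 1, with 2 libraries each, but did in experiment 2. How many of all genes had groups without overlap was not counted. The log2 change of PHLDA3 was 0.33 ± 0.05 (SE), with an unadjusted p of 7.914e-05 and an adjusted p of 0.6875 in limma.

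CDKN1A, at chr6:36678710-36685800 on the plus strand, is the gene of the arrest protein p21. It had 40.5 and 42.8 RPM with peptide in experiment 1 and 72.7, 55.7 and 50.4 RPM in experiment 2, against 36.5 and 37.8 RPM and 63.3, 46.0 and 40.7 RPM with water. It too was higher in 5 of 5 pairs, by 0.22 ± 0.05 on the log2 scale, with an adjusted p of 0.6875 in limma. The single-gene 95% interval ran from 0.12 to 0.32.

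TP53INP1, a p53-induced stress protein gene, had 11.2 and 10.5 RPM with peptide in experiment 1 and 31.8, 27.2 and 17.7 RPM in experiment 2, against 9.46 and 8.81 RPM and 23.4, 22.4 and 15.2 RPM with water. Its log2 change was 0.28 ± 0.06. PTP4A1, a phosphatase of the PRL family, had 89.9 and 90.2 RPM with peptide in experiment 1 and 153, 155 and 68.5 RPM in experiment 2, against 78.0 and 80.6 RPM and 117, 139 and 57.0 RPM with water, a log2 change of 0.23 ± 0.05. Both were higher with peptide in every pair, as the naming rule asks. In experiment 1, with 2 libraries in each group, neither had overlapping groups, while in experiment 2 both did.

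Among the feedback and arrest genes 15 of 16 lay above 0, with a median of 0.11 and 6 of them higher at an unadjusted p under 0.05. MDM2, the ligase that p53 induces against itself, was not one of the 6. It had 163 and 154 RPM with peptide in experiment 1 and 49.8, 90.8 and 18.3 RPM in experiment 2, against 150 and 142 RPM and 41.9, 72.8 and 21.7 RPM with water. That is higher in 4 of 5 pairs, with a log2 change of 0.11 ± 0.07. The phosphatase gene PPM1D had 0.14 ± 0.06, the RNA-binding protein gene ZMAT3 0.18 ± 0.05, the cyclin gene CCNG1 0.15 ± 0.06 and the ribosomal protein-like gene RPS27L 0.20 ± 0.06, each higher in 5 of 5 pairs.

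Of 22 apoptosis targets 16 lay above 0, with a median of 0.08. FAS, a death receptor, had 14.8 and 12.5 RPM with peptide in experiment 1 and 20.9, 26.2 and 19.6 RPM in experiment 2, against 11.5 and 12.2 RPM and 16.2, 23.8 and 16.8 RPM with water. Its log2 change was 0.22 ± 0.06, and that of the exonuclease gene AEN was 0.20 ± 0.05, both higher in 5 of 5 pairs. Among genes of the BCL2 family, BBC3, which encodes PUMA, had 0.11 ± 0.07, BAX had 0.08 ± 0.06 and PMAIP1, which encodes NOXA, had -0.07 ± 0.06, and each went both ways among the pairs. PIDD1, an adaptor of caspase-2 activation chosen after its values were seen, had -0.16 ± 0.06 and was lower in 5 of 5 pairs.

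**Figure D2:**
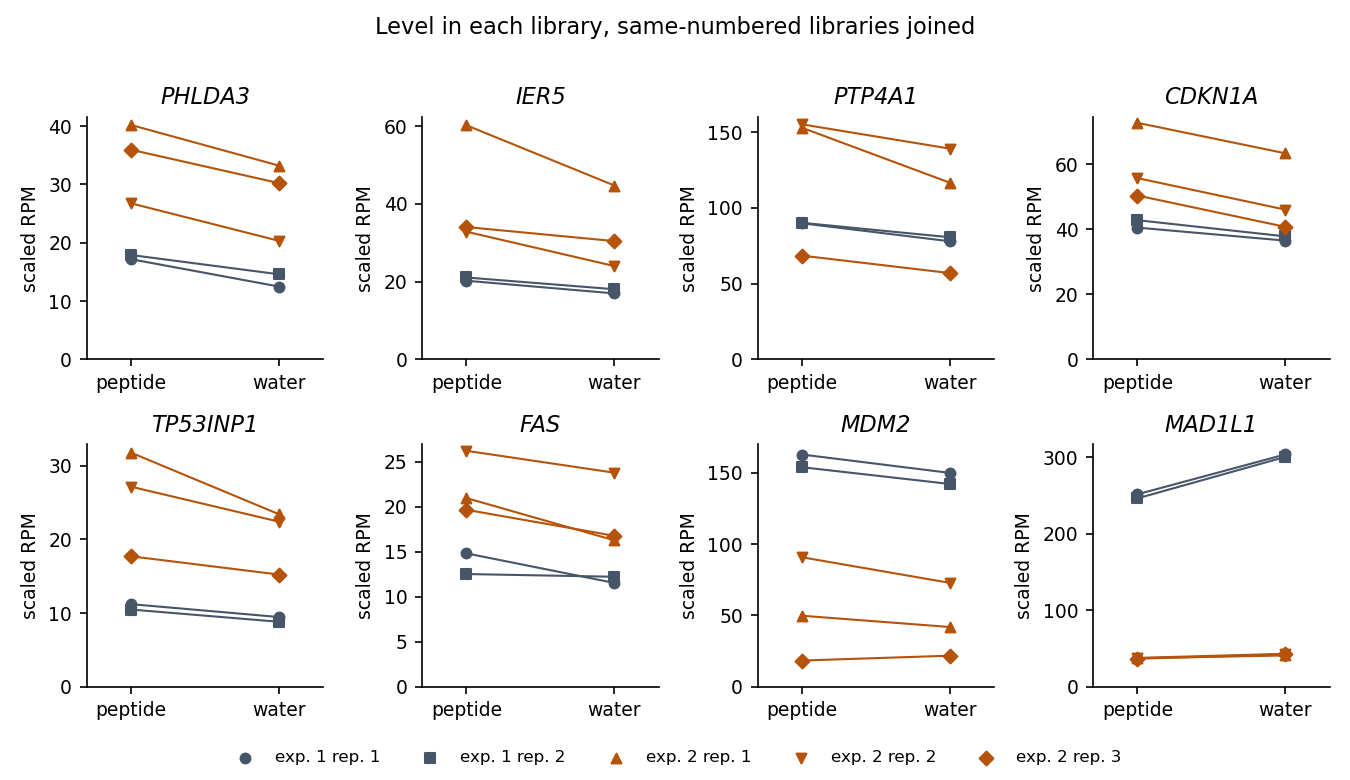
Scaled RPM of 8 genes in each library, with peptide at the left and water at the right; a line joins the same-numbered libraries of an experiment. For PHLDA3, IER5, PTP4A1, CDKN1A, TP53INP1 and FAS all 5 lines are higher at the peptide end, for MDM2 4 of 5 are, and for MAD1L1 all 5 are lower at the peptide end. Apart from FAS and MDM2, these genes were taken from those with the same direction in all 5 pairs.

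The repair and metabolism targets had a median of 0.07, with 19 of 21 above 0. RRM2B, a ribonucleotide reductase subunit gene, had 0.22 ± 0.06 and was higher in 5 of 5 pairs, the stress-induced gene SESN1 had 0.21 ± 0.08 (4 of 5) and the replication clamp gene PCNA 0.15 ± 0.06 (4 of 5). The excision repair genes XPC and DDB2 had 0.07 ± 0.05 and 0.10 ± 0.07, and the ferredoxin reductase gene FDXR had 0.04 ± 0.06. The 50 other targets had a median of 0.07 with 34 above 0, where the secreted factor gene GDF15 had 0.06 ± 0.06 and the small GTPase gene RAP2B 0.18 ± 0.06. EPHA2, a receptor kinase chosen after its values were seen, was the second target lower at an unadjusted p under 0.05, with -0.15 ± 0.06 and 3 of 5 pairs lower.

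Promoters of AEN, FAS, CDKN1A and PTP4A1, and of the other small-p genes IER5, NPW and SPATA17, were searched for the p53 half-site. It is the decamer that a p53 dimer binds, and its pattern reads alike on either strand. Promoters of the other named p53 targets, MDM2 among them, were not searched. A match stood in 6.63% of the 35116 windows of 300 bases in the RefSeq promoter table (GRCh38.p14, 250 bases before to 50 after a start). AEN and 1 of 3 FAS windows held 1 match each, shown in capitals, while the windows of CDKN1A, PTP4A1, IER5, NPW and SPATA17 held none. PHLDA3, TP53INP1, RRM2B and RRAGA were not matched in the table. The AEN window is chr15:88621090-88621389 and the FAS window chr10:88991181-88991480, both on the plus strand.
AEN: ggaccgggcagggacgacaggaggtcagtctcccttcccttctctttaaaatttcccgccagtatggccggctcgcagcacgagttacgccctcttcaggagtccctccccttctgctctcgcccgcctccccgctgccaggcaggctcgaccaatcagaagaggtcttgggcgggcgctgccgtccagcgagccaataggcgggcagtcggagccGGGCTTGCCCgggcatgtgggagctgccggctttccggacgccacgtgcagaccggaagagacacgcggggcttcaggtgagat
FAS: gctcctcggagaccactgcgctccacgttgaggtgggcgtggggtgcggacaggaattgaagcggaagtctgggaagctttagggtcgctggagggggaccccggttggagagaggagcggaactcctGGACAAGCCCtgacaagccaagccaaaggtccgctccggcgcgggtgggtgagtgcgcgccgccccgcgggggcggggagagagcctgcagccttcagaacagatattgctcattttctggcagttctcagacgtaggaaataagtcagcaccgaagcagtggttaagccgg
Such a match is a description of the letters only and says nothing about binding in these cells.

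Outside the p53 lists, the genes of smallest p that were higher in all 5 pairs came from unlike functions. IER5, an immediate early gene that acts on heat shock factor, had 20.2 and 21.1 RPM with peptide in experiment 1 and 60.3, 32.9 and 34.1 RPM in experiment 2, against 17.0 and 18.1 RPM and 44.7, 24.0 and 30.4 RPM with water (log2 change 0.30 ± 0.06). The linker histone gene H1FX had 0.25 ± 0.05, the neuropeptide gene NPW 0.27 ± 0.06, the amino acid sensing GTPase gene RRAGA 0.28 ± 0.06 and the ATP synthase subunit gene ATP5D 0.18 ± 0.04. The row of MIR6835 had 0.49 ± 0.09 and lies inside HMGA1 on the same strand, so its reads cannot be told apart from those of HMGA1.

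MAD1L1, a spindle checkpoint gene at chr7:1815792-2230133 on the minus strand, had the smallest p among genes lower in all 5 pairs. It had 251 and 246 RPM with peptide in experiment 1 and 37.1, 37.6 and 36.5 RPM in experiment 2, against 303 and 300 RPM and 40.8, 42.9 and 42.3 RPM with water. The groups did not overlap in either experiment, which was not counted over all genes, although the level itself differed between the experiments. Its log2 change was -0.22 ± 0.04, with an adjusted p of 0.6875 in limma over both experiments and of 0.00224 in experiment 1 taken alone. The collagen gene COL7A1 had -0.31 ± 0.08, the hormone gene AMH -0.24 ± 0.07, the NF-kB subunit gene RELB -0.20 ± 0.06 and the peroxisomal reductase gene DECR2 -0.26 ± 0.07. KRTAP9-7 had -0.43 ± 0.10, but its row spans 12 other keratin-associated rows of the same strand, and the pseudogene row RPS14P3, at -0.30 ± 0.07, lies inside MINOS1.

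Stress programmes were examined next. The 24 heat shock genes had a median of 0.11 with 23 above 0, where 61.9% of all genes were. None was called, 6 were higher at an unadjusted p under 0.05, where 4.59% of all genes were, and 2 (8.33%) were higher in all 5 pairs, near the 6.48% of all genes. HSPA1B, an inducible HSP70 gene, had 214 and 227 RPM with peptide in experiment 1 and 330, 236 and 313 RPM in experiment 2, against 173 and 201 RPM and 332, 220 and 242 RPM with water. That gave 0.19 ± 0.06, while the sister gene HSPA1A, a near-identical copy whose reads may be split with it, had 0.18 ± 0.06 and the co-chaperone gene DNAJB1 0.13 ± 0.05. The list median was 0.02, -0.02 and 0.29 in the pairs of experiment 2 and 0.07 and 0.15 in those of experiment 1, and 0.06 over the pairs without experiment 2 replicate 3.

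The 24 unfolded protein and ATF4 genes had a median of 0.07, with the endoplasmic reticulum co-chaperone gene DNAJB9 at 0.27 ± 0.07 (5 of 5 pairs). The 24 NRF2 genes had 0.07, the 23 interferon genes 0.08, the 23 cholesterol synthesis genes 0.06 and the 19 NF-kB genes 0.01. The 33 Mediator genes themselves had a median of 0.07, with MED7, a subunit of the middle module, at 0.27 ± 0.10. The 45 cell cycle genes had 0.08 with 40 above 0, and none of these lists held a called gene. The 5 blood markers tested had a median of -0.21 with 2 above 0. CD14 had 0.07 ± 0.12, CD68 0.06 ± 0.07 and ITGAM -0.21 ± 0.11, and the near-identical globin copies HBA1 and HBA2 had -0.41 ± 0.13 and -0.38 ± 0.13, lower in 5 and 4 of 5 pairs.

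**Figure D3:**
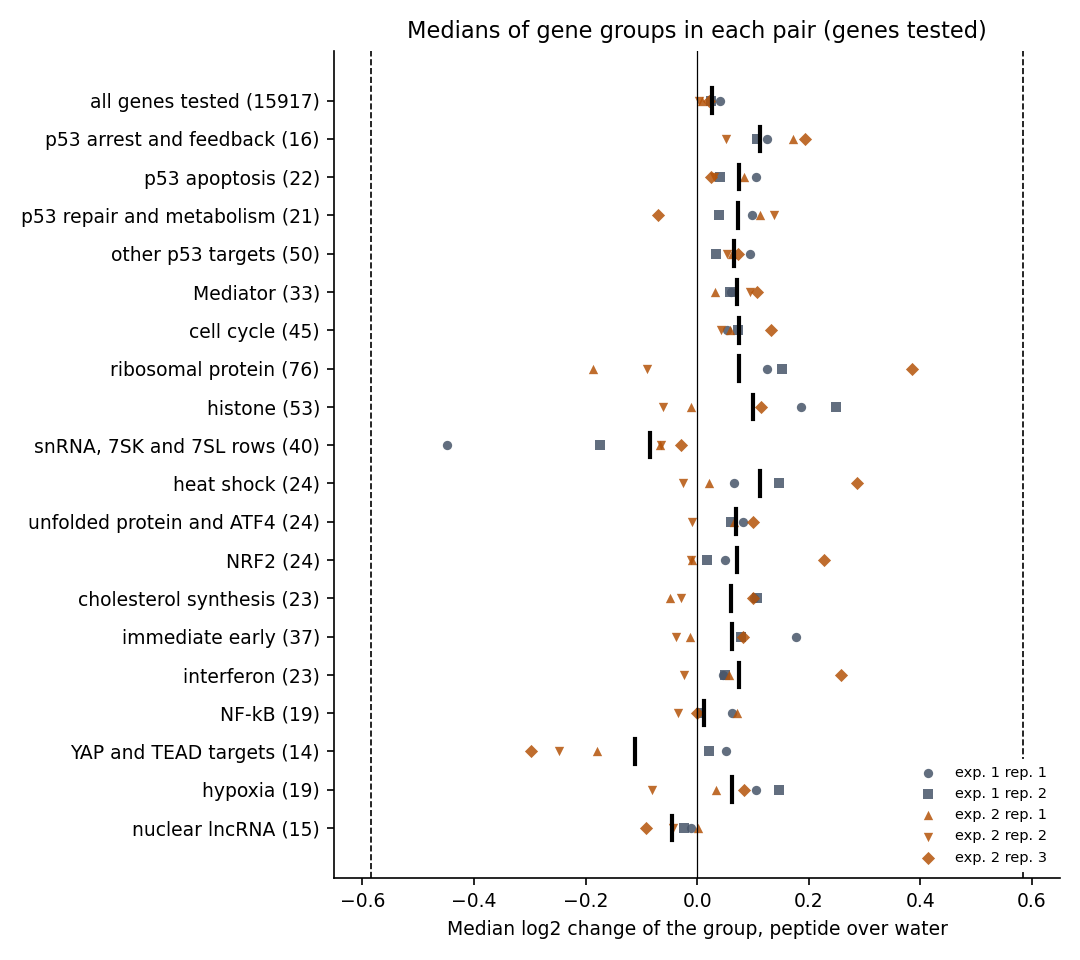
Median log2 change, peptide over water, of all genes and 19 gene groups in each of the 5 pairs (symbols, experiment 1 in grey and experiment 2 in orange) and from the paired fit (black bar), with the number of genes tested in brackets and dashed lines at 1.5-fold. The bars shown lie between -0.11 for YAP and TEAD targets and 0.11 for heat shock and p53 arrest genes, while groups not drawn include metal response genes at 0.91 and blood markers at -0.21, and pairs of the ribosomal protein group lie on both sides of 0.

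Several groups moved with the experiment or with 1 pair. The 14 targets of YAP and TEAD, the factors that read cell contact, had a median of -0.20 in experiment 2 with 0 of 14 above 0, and of 0.03 in experiment 1 with 12 of 14 above 0. Of all 15917 genes, 8866 lay above 0 in experiment 2 and 10337 in experiment 1. CTGF had 27.0, 3.23 and 77.7 RPM with peptide in experiment 2 and 6.97 and 7.22 RPM in experiment 1, against 33.4, 5.99 and 108 RPM and 6.64 and 7.30 RPM with water. Its sister CYR61 had 58.8, 20.3 and 262 RPM with peptide in experiment 2 and 53.7 and 57.2 RPM in experiment 1, against 77.2, 28.1 and 363 RPM and 45.4 and 49.5 RPM with water. CYR61 was thus lower with peptide in 3 of 3 pairs of experiment 2 and higher in 2 of 2 of experiment 1, a difference between the experiments of -0.66 ± 0.09 with an adjusted p of 0.158 in limma over 5 pairs and of 0.0135 without the pair of experiment 2 replicate 3. The list median of -0.11 over 5 pairs was -0.05 without that pair and -0.01 with library weights. The coagulation receptor gene F3 had -0.17 ± 0.05 and was lower in 5 of 5 pairs.

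All 76 ribosomal protein genes lay above 0, with a median of 0.07, and none reached an unadjusted p under 0.05. Their median was -0.19, -0.09 and 0.38 in the pairs of experiment 2 and 0.12 and 0.15 in those of experiment 1, and without the pair of experiment 2 replicate 3 it was -0.00396 with 35 genes above 0. With upper quartile or no scaling 75 of 76 lay above 0. Row span went with the change in the same pair, with a median of 0.11 for rows of 1 to 10 kb and of -0.12 for rows of 500 kb or more. The part of transcript length in these values was not tested.

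Experiment 1 taken alone gave calls. With its 2 pairs, limma called 144 of 15721 genes (0.916%), 65 higher (0.413%) and 79 lower (0.503%) with peptide, and 129 of the 144 changed by less than 1.5-fold. With 1 residual degree of freedom per gene these calls lean on the spread shared across genes. Of the 144, 115 (79.9%) had the same direction in the mean of experiment 2, where 58.0% of all genes had the same direction in both experiments, and 28 had it in all 5 pairs. Experiment 2 taken alone called 1 row of 15623 (0.0064%), SNORA14B, with 585 genes at an unadjusted p under 0.05. The genes named in the next paragraphs from these calls were chosen after their values were seen.

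Of 53 histone rows, 22 rose in experiment 1, where 0.413% of all genes did, and the other 31 did not pass. The median of the 53 was 0.21 in experiment 1 and 0.03 in experiment 2. HIST1H2BC had 110 and 115 RPM with peptide, against 85.2 and 93.2 RPM with water, in experiment 1 (log2 change 0.31 ± 0.04, adjusted p 0.00277 in limma). In experiment 2 it had at most 0.660 RPM with peptide and 0.718 RPM with water, and the median histone row had 0.359 RPM there against 84.2 RPM in experiment 1. The pairs of HIST1H2BC in experiment 2 had -0.70, 0.63 and 0.14. Whether a change of this size can be detected at such levels was not tested.

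Of 40 rows of small nuclear, 7SK and 7SL RNA, 14 fell in experiment 1, where 0.503% of all genes did. All 14 are spliceosomal rows, and the 1 row of the 40 that rose was RN7SK, the 7SK RNA that holds the elongation factor P-TEFb, at 0.34 ± 0.07. RNU4-2, a U4 row, had 23.6 and 44.0 RPM with peptide, against 45.1 and 67.5 RPM with water, in experiment 1 (-0.79 ± 0.06, adjusted p 0.000154 in limma). In experiment 2 it had 0.167, 0.0695 and 0 RPM with peptide and 0.256, 0.150 and 0.0634 RPM with water. U5 rows fell too, with RNU5A-1 at -0.68 ± 0.08. Of the 14, the U1 rows RNU1-1, RNU1-2, RNU1-3, RNU1-4, RNU1-27P, RNU1-28P and RNVU1-18 held identical values, so these near-identical copies count as 1 measurement. Structural RNA rows took 17.0 and 19.1% of reads with peptide and 17.3 and 18.7% with water in experiment 1, so their summed share did not separate the groups.

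Of 76 ribosomal protein genes, 13 rose and none fell in experiment 1, where 0.413% of all genes rose and 0.503% fell. RPS27 had 77.1 and 86.3 RPM with peptide, against 65.4 and 74.9 RPM with water (0.19 ± 0.04, adjusted p 0.0356 in limma). In experiment 2 its pairs had -0.12, -0.05 and 0.39. The immediate early genes FOS, with 27.7 and 26.1 RPM with peptide against 16.8 and 20.6 RPM with water, and FOSB rose by 0.49 ± 0.08 and 0.37 ± 0.06. The guanine nucleotide exchange factor gene VAV2 fell in experiment 1, with 146 and 143 RPM with peptide against 174 and 176 RPM with water (-0.30 ± 0.03). PHLDA3 was the single p53 target among the calls, with an adjusted p of 0.0488 in limma.

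The difference between the experiments itself passed the test for 3 rows of 15917 (0.0188%), with 374 at an unadjusted p under 0.05 (2.35%). SNORA14B, a box H/ACA snoRNA row inside TOMM20, had 19.5, 16.9 and 13.7 RPM with peptide in experiment 2 and 1.13 and 2.15 RPM in experiment 1, against 0.564, 0.549 and 0.486 RPM and 9.05 and 10.8 RPM with water. SNORD24, a box C/D row inside RPL7A, had 101, 77.4 and 131 RPM with peptide in experiment 2 and 1.94 and 1.49 RPM in experiment 1, against 123, 79.2 and 97.5 RPM and 30.0 and 32.1 RPM with water. The groups did not overlap for SNORA14B in either experiment, but in opposite directions, and for SNORD24 in experiment 1 only. Overlap was not counted over all genes. With Nutlin-3a added, and scaled over all 20 libraries, SNORA14B had 20.4, 17.0 and 0.354 RPM with peptide in experiment 2 and 2.79 and 12.4 RPM in experiment 1, against 0.247, 17.1 and 11.4 RPM and 9.24 and 16.5 RPM with water. High and low libraries thus occurred with and without peptide there. The adjusted p of the difference without Nutlin-3a was 1.956e-06 for SNORA14B and 6.913e-05 for SNORD24 in limma. The third row, NEMF, is described below.

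Of the 42 rows past 1.5-fold, 9 lay in 1 stretch of metallothionein rows on chromosome 16, 5 in 1 stretch on chromosome 14, 9 were snoRNA rows and 9 microRNA rows. SNORA14B alone was past 1.5-fold in all 5 pairs, with both directions among them, and 10 of the 42 had the same direction in all 5. Metallothioneins are small zinc-binding proteins whose promoters carry metal response elements. The MT1X promoter, at chr16:56682220-56682519 on the plus strand (RefSeq, GRCh38.p14), is shown with the cores TGCACNC and TGCGCNC of either strand in capitals. They occur 4 times in it and at least once in 29.55% of the 35116 windows. The MT2A promoter, searched in the same way, held 8, and MT2A is not among the 42 rows. The part of these cores in the changes was not tested.
MT1X: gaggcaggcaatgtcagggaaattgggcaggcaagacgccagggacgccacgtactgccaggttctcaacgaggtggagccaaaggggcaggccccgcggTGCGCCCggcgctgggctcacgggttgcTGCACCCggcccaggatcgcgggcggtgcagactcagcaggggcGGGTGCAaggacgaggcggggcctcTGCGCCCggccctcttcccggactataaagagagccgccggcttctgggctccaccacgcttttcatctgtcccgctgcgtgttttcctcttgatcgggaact

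The metallothionein rows held near-equal reads over many neighbours in some libraries. In the peptide library of experiment 1 replicate 2, MT1M held 1684 reads, MT1JP 1675, MT1A 1665, MT1DP 1684, MT1B 1666 and MT1F 1690. The minus-strand row MT1G, which lies past MT1F, held 4, and the plus-strand row MT1H behind it held 700. In the water library of the same pair MT1M, MT1JP, MT1A and MT1DP held 385, 382, 371 and 376 reads, MT1B 0 and MT1F 33. Where such a run of rows began and ended differed between libraries, so MT1B, for example, held 0 reads in the peptide library of experiment 2 replicate 1 and 1508 in that of replicate 2. MT1F had a log2 change of 3.11 ± 0.82. It was 4.94, 5.16 and 5.79 in the 3 pairs whose peptide library held such a run there, and -0.19 and -0.15 in the others. The part of such runs in this change was not tested. In none of the 9 rows past 1.5-fold was the direction the same in all 5 pairs. With Nutlin-3a, MT1F held 1746 reads in the peptide library of experiment 1 replicate 2 and 4854 in that of experiment 2 replicate 3, and 1361 and 5108 in the water libraries of experiment 2 replicates 1 and 3, so such runs also occurred without peptide. In limma-voom MT1F was called, with an adjusted p of 0.0277.

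The 15 metal response genes tested had a median of 0.91. Without MT1L, MT1M, MT1JP, MT1A, MT1DP, MT1B, MT1F, MT1H and MT1X it was 0.13 over the other 6. Of those, MT2A, which held 5997 to 35908 reads with peptide and 5368 to 22241 with water, had 0.23 ± 0.09 and was higher in 3 of 5 pairs, and MT1E had 0.20 ± 0.11 and was higher in 4 of 5. The zinc exporter gene SLC30A1, a target of the metal-sensing factor MTF1, had 0.16 ± 0.05 and was higher in 4 of 5 pairs. MTF1 itself had 0.09 ± 0.04 and the zinc importer gene SLC39A10 0.03 ± 0.06. MT1G had -0.46 ± 0.31 and was lower in 4 of 5 pairs.

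**Figure D4:**
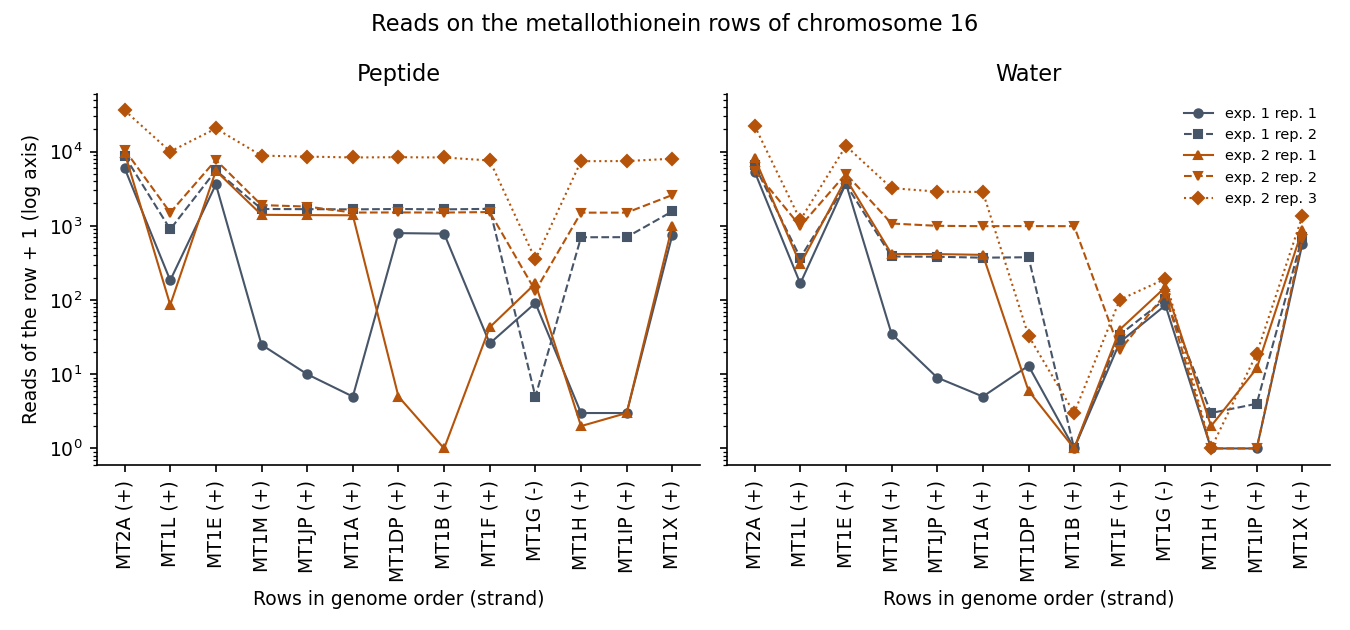
Reads plus 1, on a log axis, of 13 metallothionein rows in genome order, with the 5 peptide libraries at the left and the 5 water libraries at the right and the strand in brackets. Flat runs over neighbouring plus-strand rows reach MT1F in 3 of these peptide libraries and in none of these water libraries, and MT1G on the minus strand lies below them.

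On chromosome 14 the rows LRR1, POLE2, KLHDC1, KLHDC2 and NEMF lie between RN7SL1 and RN7SL2, the near-identical genes of the abundant 7SL RNA. The RN7SL1 row held 1110171 and 1147915 reads in the peptide libraries and 746337 and 1173096 in the water libraries of experiment 1, against 683 to 6688 in experiment 2. KLHDC1 held 24750 and 56 reads with peptide and 66 and 42 with water in experiment 1, so its log2 change of 1.68 rests on 1 library and was 0.07 in experiment 2. NEMF, a factor of stalled ribosome rescue, held 123189 and 28122 reads with peptide and 32929 and 4693 with water in experiment 1, and 1656, 2567 and 6594 with peptide against 1264, 1773 and 5951 with water in experiment 2. Its difference between the experiments was -2.04 ± 0.21 with an adjusted p of 0.0219 in limma. The part of 7SL reads in these rows was not tested.

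The libraries with Nutlin-3a serve to ask whether the peptide effect at basal p53 differs from that with p53 released from MDM2. The 2 effects share no library, and limma fitted them in 1 model of 20 libraries and 15958 genes. The difference, given as the effect with Nutlin-3a minus that without, passed for 0 genes (0%) in limma and 0 in limma-voom, and 288 genes (1.80%) had an unadjusted p under 0.05. Of 109 p53 targets 93 had a difference below 0, as had 7199 of the 15878 genes tested in both fits. At an unadjusted p under 0.05, 30 targets were below 0 and 0 above, where 0.946% of all genes were below and 0.859% above. The median peptide effect of the targets was 0.07 without Nutlin-3a and -0.15 with it, and the median difference was -0.23, against 0.02 for all genes. With Nutlin-3a the target median was -0.27 and -0.39 in the pairs of experiment 1 and -0.07, -0.04 and -0.01 in those of experiment 2.

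That count depended on 1 set of libraries of experiment 1 and on the pairing. Without the 4 libraries of its replicate 1, 7 targets had a difference below 0 at an unadjusted p under 0.05. The share of all genes was 0.548%, and the median difference of the targets was -0.17. Without the pairing there were also 7 targets, where 0.094% of all genes were. Without the 4 libraries of experiment 1 replicate 2, which include a library of Nutlin-3a with water that stands apart, there were 24. The share of all genes was 1.97% there, and the target median was -0.18. CDKN1A had log2 changes per pair of 0.14 and 0.16 in experiment 1 and 0.19, 0.27 and 0.30 in experiment 2 without Nutlin-3a. With Nutlin-3a it had -1.48 and -1.85 in experiment 1 and -0.14, -0.08 and -0.11 in experiment 2. The signs were thus opposite in 5 of 5 pairs. CDKN1A was named from genes higher in all 5 pairs without Nutlin-3a, so that side was fixed in advance and adds no support. The difference was -0.95 ± 0.33, with an adjusted p of 0.9999 in limma.

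Of 19 panel genes shown for that model, 18 lay above 0 without Nutlin-3a, PMAIP1 being the exception. FAS had 0.21 without and -0.50 with Nutlin-3a (difference -0.72 ± 0.20), BTG2, an antiproliferative gene, 0.15 and -0.84 (-0.98 ± 0.35), PHLDA3 0.32 and -0.57 (-0.89 ± 0.32) and MDM2 0.11 and -0.46 (-0.57 ± 0.25). RRM2B had 0.22 and -0.00280, with a difference of -0.22 ± 0.21. None of these differences passed over all genes.

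**Figure D5:**
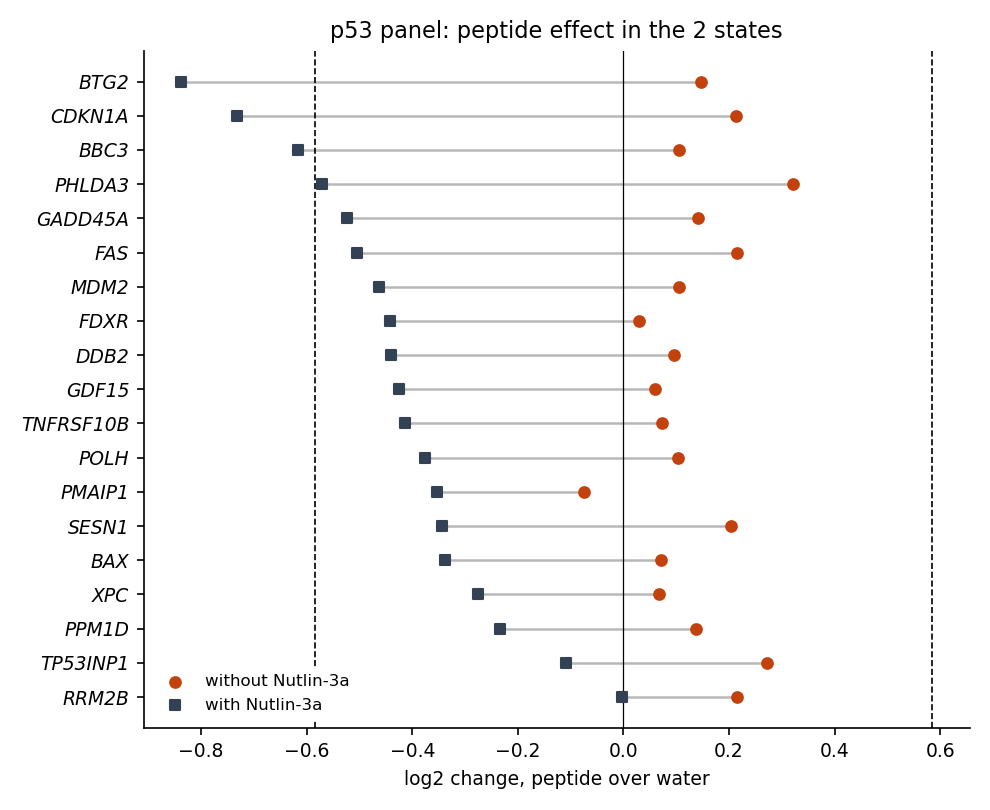
Log2 change, peptide over water, of 19 p53 genes without Nutlin-3a (orange circles) and with it (dark squares), from the 20-library fit, with dashed lines at 1.5-fold. Without Nutlin-3a all lie between -0.08 and 0.32, and with it they run from -0.84 for BTG2 to -0.00280 for RRM2B.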

How the data were processed

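The deposited tables, 1 for either experiment, have 26485 rows. Per the submitters' processing notes, the build was hg38 and the tools include HISAT2, bedtools and limma, with no version or role given. Strand handling in the counting is not given in the sources used here. The values are a signal, which from the deposited values is RPM divided by (stop - start/1000). Multiplying by that term gave RPM, and reads whole within 0.001 were recovered for 100% of them. For 1491 symbols the tables list another isoform. With this unit in place of counts, the test was limma 3.58.1 in R 4.3.3 on log2(RPM + 0.5) after trimmed mean of M value scaling (30% of ratios and 5% of abundances trimmed), with a trend, two-sided, with Benjamini-Hochberg adjustment over all genes tested and 5 pair blocks. Python 3.11.15 and matplotlib 3.10.9 drew the figures. The procedure was tested on simulated data.

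Pairs follow the numbers in the labels. Deviations from the condition means correlated between same-numbered libraries at 0.2911 in experiment 1, where 2 replicates mirror each other, and at 0.8959 to 0.9307 in experiment 2, against at most -0.2911 for other numbers. The deviations of a group sum to 0 by construction. A high value for the same number thus forces values below 0 among the other numbers in experiment 2 too, so these add no support. Named genes are up to 10 called in each direction or, where fewer were called, the 12 of smallest p with a mean of at least 5 RPM, at least 1 RPM in each experiment and the same direction in all 5 pairs, a panel of 20 p53 genes, up to 4 members of each list, the metal response rows and the 6 of smallest p in each interaction. Members and lists were chosen with earlier results of these data known. Some genes that the rule takes are given by counts only, and 1 gene of the panel is not reported here.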

Additional observations from a re-analysis of the deposited data

Results flagged for a closer look

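Of 41 named genes, 5 had 1 pair whose log2 change, peptide over water, stood apart from those of the other 4, and chance alone flags about 1 in 20 groups. The pair of experiment 2 replicate 1 stood apart for TP53INP1, at 0.43, and for PPM1D, at 0.41, both above the other pairs. The pair of experiment 2 replicate 3 stood apart for COL7A1, at -0.63, for RELB, at -0.42, and for the death receptor gene TNFRSF10B, at -0.16, each below the other pairs. In the pair of experiment 2 replicate 3 the ribosomal protein median was 0.38 and that of rows of 500 kb or more was -0.12. The ribosomal protein median was 0.12 and 0.15 in experiment 1 and -0.19 and -0.09 in the other pairs of experiment 2. For the long rows it was 0.005 and -0.05 in experiment 1 and -0.002 and 0.05 in those other pairs. A link to the genes above was not tested.

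The peptide effect differed between the experiments for 3 rows by the test of the difference, given as experiment 2 minus experiment 1 on the log2 scale. It was 6.37 for SNORA14B, 3.87 for SNORD24 and -2.04 for NEMF. Their levels and reads in each library are given above, and with Nutlin-3a the SNORA14B row was high or low in libraries with and without peptide alike.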

How the results depend on the processing

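The count of genes called was 0 under 17 of 20 other settings, among them no replicate block, other scalings, other filters and each pair left out in turn. It was 1 in limma-voom with the replicate block (MT1F), 144 in experiment 1 alone and 1 in experiment 2 alone (SNORA14B). The count of genes within 1.5-fold was 9520 with no replicate block and 24220 of 24496 genes with no filter, and 15503 to 15775 with each pair left out. It was 14635 with log2(RPM + 0.1) and 14645 in limma-voom, each of 15917 genes. The count of rows that differed between the experiments was 2 to 10 with each pair left out, 10 without the pair of experiment 2 replicate 3 or of experiment 1 replicate 2 and 6 without that of experiment 1 replicate 1. In experiment 1 alone, SNORA14B had -2.32 and CYR61 0.20, against the direction over both experiments. With no replicate block, 7 p53 targets had a difference by Nutlin-3a below 0 at an unadjusted p under 0.05. The share of all genes was 0.094%. The metal list without 9 metallothionein rows, limma-voom in the comparison by Nutlin-3a, and the other scalings, filters and left-out pairs for the 1.5-fold count were added after the data were seen. The causes were not tested.

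Depth limits rows under 1 RPM, where 1187 of 1234 genes (96.2%) lay within 1.5-fold. With 5 pairs, 2 of them from an experiment of other RNA composition, the unadjusted 95% interval of the median gene reached about 0.15 to either side on the log2 scale. Differences larger than that, such as that of PHLDA3, did not pass over all genes either, where the smallest adjusted p in limma was 0.6875.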
